A study of Mus musculus with 15 samples.

Results

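Most of the 57 genes here encode translation initiation factors (symbols in Eif), elongation factors eEF1 and eEF2, or enzymes that modify eEF1 or eEF2. RNA levels of all 57 were compared between control mouse embryonic stem cells and knockdown cells. In the latter, the RNA for 1 of 4 large-subunit (60S) ribosomal proteins was knocked down. The genes were chosen by symbol: Eif followed by a digit from 1 to 6, or Eef1 or Eef2, leaving out the eIF2 kinases (Eif2ak) and the 4E-BPs (Eif4ebp), and with 2 or more of the larger table's 10 libraries reaching 1 FPKM (fragments per kilobase of transcript, scaled to the mapped total). Of 24819 rows in each of the deposited tables, 61 matched the symbols and 57 of those passed the level filter. The symbols also took in Eef1e1, Eif4a3 and Eif4enif1, whose products have other roles. In all, 12249 rows passed the level filter and were tested. The 4 rows under it were Eef1a2 (at most 0.304 FPKM), Eif4e1b (at most 0.240 FPKM), the joined transcript Eef1akmt4-ece2 (at most 1.02 FPKM, in a library of the smaller table) and Eif3j1, which is described with Eif3j2 among the eIF3 subunits.

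The cells were of the embryonic stem cell line E14, kept on gelatin in medium with serum and leukemia inhibitory factor, and their RNA was sequenced. The cells were transfected, with DharmaFECT, either with a control siRNA (siNT) or with siRNA to 1 of Rpl11, Rpl14, Rpl18 and Rpl23, so the controls share the transfection but have no targeted gene. Titles name 48 h and the treatment protocol 3 days of knockdown before harvest, and the labels do not settle this. The 5 groups had 3 libraries each, made from polyadenylated RNA with a strand-specific kit: replicates 1 and 2 lie in the larger table, and the third library of each group lies in a separately normalized table. All groups are 1 cell line, and the number of siRNAs per target is not given in the sources used here.

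Translation of most cellular mRNAs starts when eIF2 brings the initiator tRNA to the small (40S) ribosomal subunit, eIF4F binds the cap of the mRNA, and the loaded 40S subunit, held by eIF3, eIF1, eIF1A and eIF5, scans to the start codon. eIF5B then joins the 60S subunit, from which eIF6 must first have left, and eEF1A and eEF2 carry out the cycles of elongation. Stem cells devote a large share of their transcripts to this machinery, and many of its mRNAs begin with a run of pyrimidines (the TOP element) through which mTOR signalling controls their translation.

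The 10 libraries of the larger table differed in relative depth from 0.698 to 1.39 times the first siNT library, and those of the smaller table from 1.00 to 1.30 times theirs. Absolute depth is unknown. Each target fell in its own group: 24.0% of Rpl11, 51.6% of Rpl14, 32.6% of Rpl18 and 36.3% of Rpl23 RNA remained in replicates 1 and 2, and 19.9%, 38.5%, 31.2% and 31.1% in the third libraries. All 10 stem cell markers checked (Pou5f1, Sox2 and Nanog among them) were at 1 FPKM or more in all 15 libraries, with a summed level of 6662 to 7407 FPKM in siNT and 4928 to 6834 in the knockdowns. The sum hides single markers. In siRpl11, Pou5f1 (1043, 1109.5 and 1490.3 FPKM in replicates 1 and 2 and the third library, against 919, 977 and 1283 in siNT) and Sox2 lay above the siNT libraries of their table. Nanog was at 431, 446 and 293 FPKM in siNT, at 189, 195 and 123 in siRpl11, and at 238 to 261 in the other knockdowns of the larger table and 175 to 190 in the smaller, and Zfp42, Esrrb and Tfcp2l1 likewise lay below siNT in every knockdown library of each table. Lin28a was at 94.7, 88.2 and 129 FPKM in siNT and at 292, 280.3 and 298 in siRpl11. Of 8 fibroblast markers, 5 were under 0.1 FPKM in all libraries. The summed level of the 8 was 15.3 to 19.04 FPKM in siNT, 4.03 to 6.69 in siRpl11 and 7.72 to 11.2 in the other knockdowns. This sum was almost all Thy1, at 14.56, 15.05 and 18.93 FPKM in siNT and 3.678, 5.196 and 6.569 in siRpl11. Col1a1 was at 0.408, 0.368 and 0.101 FPKM in siNT and 0.746, 0.764 and 0.398 in siRpl14. It lay above siNT of its table in siRpl18 and siRpl23 too, and below it in siRpl11. The summed level of 4 trophectoderm markers was 4.54 to 5.96 FPKM in siNT and 3.52 to 5.57 in siRpl11, but 29.4 to 39.7 in siRpl14, 15.6 to 18.5 in siRpl18 and 25.1 to 33.0 in siRpl23. This sum was mostly Krt8, which was at 4.402, 5.465 and 5.603 FPKM in siNT and 2.141, 2.849 and 4.018 in siRpl11. Gata3 went the other way, at 0.038, 0.027 and 0.311 FPKM in siNT and 1.202, 0.949 and 1.477 in siRpl11. The summed level of 5 primitive endoderm markers was 1.47 to 2.83 FPKM in siNT and 2.57 to 4.65 in siRpl11. In siRpl14, siRpl18 and siRpl23 it was 3.71 to 5.47, 3.97 to 6.94 and 2.87 to 6.34. The 4 two-cell-like markers in the tables summed to 13.96 to 54.97 FPKM in siNT, 7.88 to 28.3 in siRpl11, 58.7 to 130.2 in siRpl14, 38.6 to 115.8 in siRpl18 and 40.9 to 125.2 in siRpl23. The part of these marker shifts in the differences reported here was not tested, and in bulk RNA fewer cells of a type and less RNA per cell cannot be told apart.

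Differences were tested with limma on log2(FPKM + 1) of replicates 1 and 2 (n = 2 libraries per group), a scale that understates the change of genes with low FPKM. A gene was called where the p-value, adjusted over all 12249 genes, was under 0.05, and errors of log2 changes are standard errors. No label says that libraries of a group came from separate cultures, so the p-values reflect library-to-library spread that may be technical. The 4 comparisons with siNT share the same siNT libraries, so a gene called in several of them has not been found several times independently. Where 3 values are given for a group they are replicates 1 and 2 and then the third library, whose scale is that of the other table and which entered no test unless all 15 libraries are named. Where a call was lost under an alternative, such as leaving out 1 library, the p given as “at most” is the highest limma adjusted p over all alternatives tried for that gene and comparison.

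Most changes of the translation factor genes were modest, and single genes within the same complex moved in opposite directions. In siRpl11, 25 members (43.9%) were called higher, beside 27.3% of all genes tested, and 15 (26.3%) lower, beside 43.6%. In siRpl14, 17 (29.8%) were higher, beside 33.3% of all genes, and 12 (21.1%) lower, beside 29.5%. In siRpl18, 16 (28.1%) were higher, beside 32.8%, and 18 (31.6%) lower, beside 34.7%. In siRpl23, 20 (35.1%) were higher, beside 34.9%, and 14 (24.6%) lower, beside 30.8%. In either direction 70.2%, 50.9%, 59.6% and 59.6% of members were called in the 4 knockdowns, beside 70.9%, 62.8%, 67.6% and 65.7% of all genes. Counted by direction, the members' shares lay farthest from those of all genes in siRpl11, above for genes called higher and below for genes called lower, a difference that was not tested. Eif4e3, the only member with a library of the larger table under 1 FPKM, passed the level filter only through siRpl14 and siRpl23, where it is high. It is counted above as lower in siRpl11 and higher in siRpl14 and siRpl23, and those calls are not used as results.

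Few of these changes were large. In siRpl11, 7 members were called higher by a log2 change of 0.5 or more (9.89% of all genes) and 3 lower by as much (23.2% of all genes), or 17.5% of members beside 33.1% of all genes. In siRpl14 these were 4 higher (14.2% of all genes) and 3 lower (10.9%), or 12.3% of members beside 25.1%. In siRpl18 they were 2 higher (14.8% of all genes) and 3 lower (14.6%), or 8.77% beside 29.4%, and in siRpl23 4 higher (15.2%) and 3 lower (12.3%), or 12.3% beside 27.4%. The median log2 change of the 57 members was 0.09 in siRpl11, 0.02 in siRpl14, -0.01 in siRpl18 and 0.02 in siRpl23. Over all genes tested it was -0.11, 0.02, -0.02 and 0.02. The median of all genes in siRpl11 depended on scaling and was 0.01 after quantile normalization and -0.03 after median-ratio scaling, where 35.4% and 33.8% of all genes and 25 and 31 members were higher.

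Members called higher in each of the 4 comparisons with siNT were Eif1, Eif1b, Eif1ad, Eif5, Eif2a, Eif2d, Eif2s3y, Eif3g, Eif4g2, Eif6 and Eef1akmt1. Those called lower in each were Eif2s2, Eif2b3, Eif3c, Eif3k, Eif4a2, Eif4e2, Eef1g, Eef2k and Eef2kmt. The share of all genes with such patterns is not given here, so these lists name genes and say nothing of the set. Eif4b was called higher in siRpl11 and lower in the other knockdowns. Eef1a1, Eef1b2, Eef2, Eif2b2, Eif2s3x, Eif3j2, Eif3l, Eif5a2, Eif5b and Eef1akmt4 were called in none.

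**Figure D1:**
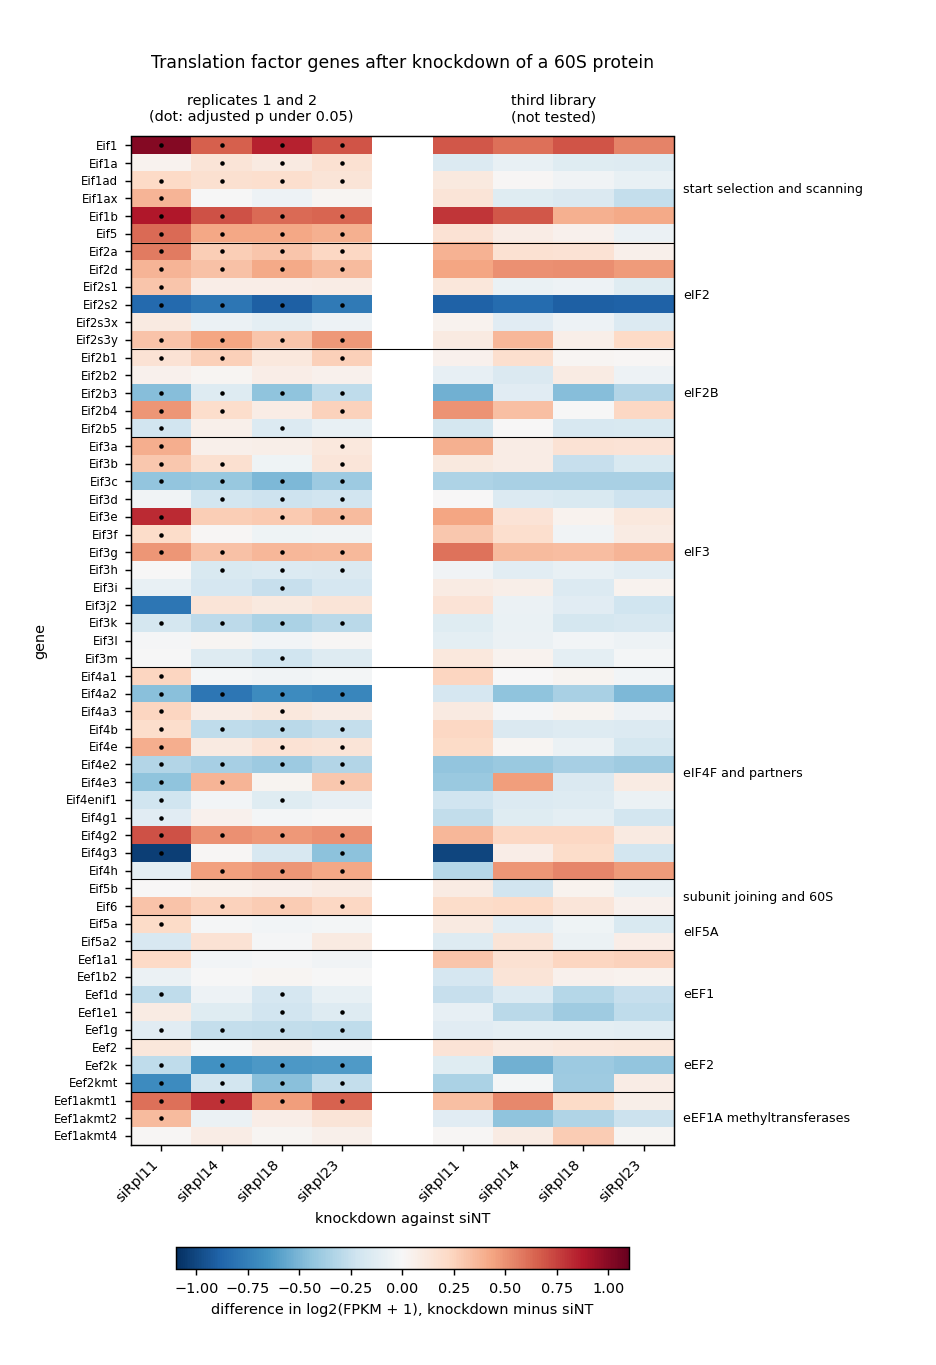
Difference from siNT in log2(FPKM + 1) for the 57 genes (rows, by role) in each knockdown (columns), for replicates 1 and 2 on the left, where dots mark an adjusted p under 0.05, and for the third libraries on the right, which were not tested. Eif1, Eif1b and Eif4g2 are red and Eif2s2 and Eif4a2 are blue in all 8 columns, while Eif4g3 is dark blue in siRpl11. The dots of Eif4e3 are not read, because that gene passed the level filter only through groups where it is high.

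The factors that select the start codon included the largest increase of the set, Eif1 in siRpl11. Of 6 genes of this group, 5 were called higher in each knockdown, beside 27.3%, 33.3%, 32.8% and 34.9% of all genes in siRpl11, siRpl14, siRpl18 and siRpl23, and 0 lower, beside 43.6%, 29.5%, 34.7% and 30.8%. Their median log2 change was 0.50 in siRpl11, 0.30 in siRpl14, 0.30 in siRpl18 and 0.28 in siRpl23, against -0.11, 0.02, -0.02 and 0.02 over all genes. Eif1 encodes the small protein that keeps the 40S subunit open for scanning and lets it reject poor start codons. Eif1 was at 359.8, 344 and 309 FPKM in siNT, 732, 686 and 496 in siRpl11, 561, 547 and 469 in siRpl14, 634, 634 and 500.1 in siRpl18, and 582, 557 and 452 in siRpl23. Every knockdown library lay above every siNT library, and siRpl11 replicates 1 and 2 were the highest. The log2 changes were 1.01 ± 0.05 in siRpl11, 0.65 ± 0.05 in siRpl14, 0.85 ± 0.05 in siRpl18 and 0.69 ± 0.05 in siRpl23 (limma, adjusted p at most 1.87e-06), which in siRpl11 is 2.01-fold. The knockdowns differed among themselves (limma's moderated F test, adjusted p = 4.90e-04). In the third libraries the differences from siNT were 0.68, 0.60, 0.69 and 0.55.

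Eif1b, a paralog of Eif1, rose as well. It was at 25.9, 25.6 and 23.9 FPKM in siNT, 49.7, 47.1 and 42.1 in siRpl11, 42.1, 42.6 and 39.2 in siRpl14, 39.8, 40.8 and 31.8 in siRpl18, and 41.0, 40.4 and 32.3 in siRpl23. All knockdown libraries lay above all siNT libraries. Its log2 changes were 0.88 ± 0.04 in siRpl11, 0.70 ± 0.04 in siRpl14, 0.63 ± 0.04 in siRpl18 and 0.64 ± 0.04 in siRpl23 (limma, adjusted p at most 6.61e-07).

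Eif5 encodes the protein that makes eIF2 hydrolyse its GTP at the start codon. It was at 62.8, 59.6 and 109 FPKM in siNT, 98.9, 90.6 and 122 in siRpl11, 85.0, 80.5 and 116 in siRpl14, 85.8, 79.3 and 113 in siRpl18, and 81.9, 79.0 and 104 in siRpl23. In the larger table the knockdowns did not overlap siNT and the log2 changes were 0.62 ± 0.06 in siRpl11, 0.43 ± 0.06 in siRpl14, 0.43 ± 0.06 in siRpl18 and 0.39 ± 0.06 in siRpl23 (limma, adjusted p at most 1.95e-04). In the smaller table, where siNT itself was 1.79 times as high as in the larger one, the third libraries lay close to siNT, with differences of 0.16, 0.08, 0.04 and -0.07.

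Eif1ax and Eif1a encode eIF1A, which stabilizes the scanning complex. Eif1ax was at 34.8, 33.7 and 37.2 FPKM in siNT, 44.5, 44.6 and 41.2 in siRpl11, 34.6, 33.7 and 33.7 in siRpl14, 32.9, 32.8 and 33.2 in siRpl18, and 34.3, 35.1 and 30.9 in siRpl23. Only siRpl11 stood above siNT, by 0.37 ± 0.04 (limma, adjusted p = 1.75e-05), and siRpl11 exceeded the mean of the other 3 knockdowns by 0.38 ± 0.03 (adjusted p = 4.08e-06). Eif1a was at 79.8, 83.7 and 104 FPKM in siNT, 83.1, 84.6 and 93.6 in siRpl11, 89.3, 91.5 and 98.3 in siRpl14, 85.9, 89.7 and 94.9 in siRpl18, and 92.9, 91.1 and 94.0 in siRpl23. Its calls (log2 changes 0.14, 0.10 and 0.17 in siRpl14, siRpl18 and siRpl23) were small. The third libraries of these groups lay below siNT, and with all 15 libraries in limma none of the 3 calls held (adjusted p at most 0.702). Without siNT replicate 1 the calls in siRpl14 and siRpl18 were lost, without siRpl14 replicate 2 that in siRpl14, and the siRpl18 call also without any 1 of 7 other libraries. Eif1ad, named for its likeness to eIF1A, was higher by 0.14 to 0.22, and the third libraries differed from siNT by 0.11, 0.01, -0.04 and -0.08. Its call was lost without siRpl14 replicate 1 in siRpl14, with all 15 libraries in siRpl18, and without either siNT replicate or siRpl23 replicate 2 in siRpl23 (adjusted p at most 0.0615, 0.0762 and 0.262).

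The 6 genes grouped here with eIF2, the carrier of the initiator tRNA, included Eif2s2, the member with the largest decrease in siRpl18 and siRpl23. Of them 4 were called higher and 1 lower in siRpl11, and 3 higher and 1 lower in each of the others. Among all genes 27.3% were higher and 43.6% lower in siRpl11, and 32.8% to 34.9% higher and 29.5% to 34.7% lower in the others. Eif2s2 encodes the beta subunit, the part that contacts eIF5 and eIF2B. Eif2s2 was at 189, 187 and 302 FPKM in siNT, 107, 100.3 and 162 in siRpl11, 109.5, 107 and 167 in siRpl14, 102, 99.2 and 162 in siRpl18, and 111, 107 and 163 in siRpl23. Each knockdown library lay below the siNT library or libraries of its own table. Relative to siNT the log2 changes were -0.85 ± 0.04 in siRpl11, -0.79 ± 0.04 in siRpl14, -0.90 ± 0.04 in siRpl18 and -0.78 ± 0.04 in siRpl23 (limma, adjusted p at most 2.49e-07), so siNT was 1.72 to 1.87 times as high. The F test among the 4 knockdowns did not pass (adjusted p = 0.112). The third libraries gave -0.89, -0.85, -0.90 and -0.89.

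No other eIF2 subunit gene was called lower. Eif2s1, for the alpha subunit whose phosphorylation by stress kinases slows initiation, was at 89.4, 92.8 and 97.1 FPKM in siNT, 111, 115 and 106 in siRpl11, 92.7, 98.9 and 92.4 in siRpl14, 93.7, 98.6 and 93.3 in siRpl18, and 96.8, 96.1 and 88.6 in siRpl23. It was called only in siRpl11 (0.31 ± 0.05, limma, adjusted p = 1.63e-04). The ratio of Eif2s2 to Eif2s1, chosen after its values were seen and not tested, averaged 2.37 in siNT, 1.09 in siRpl11, 1.32 in siRpl14, 1.24 in siRpl18 and 1.33 in siRpl23 (geometric means of 3 libraries). Eif2s3x and Eif2s3y, on the X and Y chromosomes, encode the gamma subunit that binds GTP. Eif2s3x was at 48.8, 49.5 and 80.3 FPKM in siNT, 51.2, 54.6 and 82.5 in siRpl11, 44.96, 49.2 and 73.4 in siRpl14, 43.8, 47.2 and 77.1 in siRpl18, and 46.1, 48.4 and 72.2 in siRpl23 and was called in no knockdown, with log2 changes of 0.10, -0.06, -0.11 and -0.06. Eif2s3y was at 16.1, 13.7 and 25.4 FPKM in siNT, 19.6, 17.9 and 27.2 in siRpl11, 22.1, 18.8 and 33.1 in siRpl14, 18.3, 18.9 and 26.6 in siRpl18, and 22.2, 19.999 and 29.7 in siRpl23. Its changes on the log2 scale were 0.31 ± 0.09 in siRpl11, 0.43 ± 0.09 in siRpl14, 0.31 ± 0.09 in siRpl18 and 0.48 ± 0.09 in siRpl23 (limma, adjusted p at most 0.0140). Without siNT replicate 2 the calls in siRpl11 and siRpl18 were lost, as they were without siRpl11 replicate 1 and siRpl18 replicate 2, respectively (adjusted p at most 0.106 and 0.122).

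Eif2a and Eif2d encode proteins that can place tRNA on the 40S subunit without eIF2. Eif2a was at 56.9, 55.9 and 72.7 FPKM in siNT, 90.1, 78.8 and 95.4 in siRpl11, 72.1, 64.7 and 81.8 in siRpl14, 74.0, 66.2 and 81.5 in siRpl18, and 69.0, 63.4 and 75.8 in siRpl23. All knockdown libraries lay above siNT within their table. The log2 changes were 0.57 ± 0.08 in siRpl11, 0.27 ± 0.08 in siRpl14, 0.31 ± 0.08 in siRpl18 and 0.23 ± 0.08 in siRpl23 (limma, adjusted p at most 0.0277). The calls outside siRpl11 were lost when single libraries were left out: siNT replicate 2 or siRpl14 replicate 1 for siRpl14, siRpl18 replicate 1 for siRpl18, and either siNT replicate or siRpl23 replicate 1 for siRpl23 (adjusted p at most 0.1002, 0.0523 and 0.203). Eif2d was at 56.8, 62.0 and 47.9 FPKM in siNT, 74.3, 80.6 and 65.0 in siRpl11, 71.2, 77.3 and 68.1 in siRpl14, 75.5, 83.9 and 68.7 in siRpl18, and 73.0, 78.3 and 66.4 in siRpl23. Its log2 changes were 0.38 ± 0.07 in siRpl11, 0.32 ± 0.07 in siRpl14, 0.42 ± 0.07 in siRpl18 and 0.34 ± 0.07 in siRpl23 (limma, adjusted p at most 0.00283), and the third libraries gave 0.43, 0.50, 0.51 and 0.46.

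**Figure D2:**
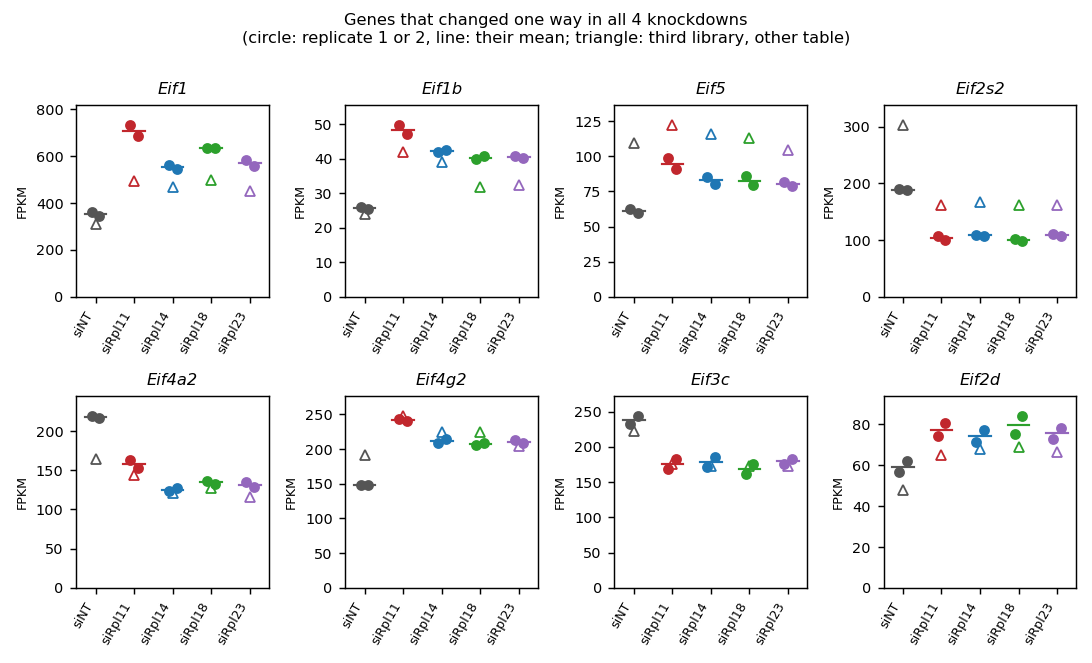
FPKM of 8 genes called in 1 direction in each knockdown, by group on the x axis, with circles for replicates 1 and 2, a line for their mean and a triangle for the third library from the other table. In Eif2s2 every knockdown symbol lies below the siNT symbol of the same kind, whereas the Eif5 triangles stay close to the siNT triangle.

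eIF2B is the exchange factor that recharges eIF2 with GTP. Of its 5 subunit genes, 2 were higher and 2 lower in siRpl11 (27.3% and 43.6% of all genes), 2 and 1 in siRpl14 (33.3% and 29.5%), 0 and 2 in siRpl18 (32.8% and 34.7%), and 2 and 1 in siRpl23 (34.9% and 30.8%). Eif2b4, for the delta subunit of the regulatory core, was at 26.2, 25.4 and 33.7 FPKM in siNT, 35.4, 37.6 and 47.9 in siRpl11, 29.4, 29.7 and 42.6 in siRpl14, 26.6, 28.3 and 33.6 in siRpl18, and 31.0, 31.0 and 39.7 in siRpl23. Its log2 change was 0.48 ± 0.05 in siRpl11 (limma, adjusted p = 9.59e-06), 0.19 ± 0.05 in siRpl14 (adjusted p = 0.00558) and 0.26 ± 0.05 in siRpl23 (adjusted p = 8.77e-04), and 0.09 ± 0.05 in siRpl18, which was not called (adjusted p = 0.135). The third library of siRpl18 also lay level with siNT. Eif2b3, for the gamma subunit of the catalytic part, went the other way. It was at 42.8, 41.9 and 30.7 FPKM in siNT, 29.8, 31.1 and 20.9 in siRpl11, 35.9, 40.6 and 28.1 in siRpl14, 30.6, 31.1 and 21.9 in siRpl18, and 34.6, 34.8 and 24.3 in siRpl23. Its changes on the log2 scale were -0.46 ± 0.06 in siRpl11, -0.15 ± 0.06 in siRpl14, -0.44 ± 0.06 in siRpl18 and -0.28 ± 0.06 in siRpl23 (limma, adjusted p at most 0.0432). The call in siRpl14 was lost without either siNT replicate and without siRpl14 replicate 1, among others (adjusted p at most 0.365). Of the rest, Eif2b1 was higher in siRpl11, siRpl14 and siRpl23 (log2 changes 0.16, 0.26 and 0.26), in siRpl11 not without siNT replicate 1 or siRpl11 replicate 2 (adjusted p at most 0.139). Eif2b5 was lower in siRpl11 (-0.21) and siRpl18 (-0.15), and Eif2b2 was not called.

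eIF3, the largest initiation factor, holds the 40S subunit and the mRNA together. Of its 13 tested subunit genes, 5 were higher and 2 lower in siRpl11, where 27.3% and 43.6% of all genes were. The counts were 2 and 4 in siRpl14 (all genes 33.3% and 29.5%), 2 and 6 in siRpl18 (32.8% and 34.7%), and 4 and 4 in siRpl23 (34.9% and 30.8%). The core subunit genes Eif3a and Eif3c went in opposite directions in siRpl11. Eif3a, the scaffold, was at 157, 159 and 174 FPKM in siNT, 207, 211 and 229 in siRpl11, 159, 169.5 and 185 in siRpl14, 161, 169 and 195 in siRpl18, and 176, 168 and 194 in siRpl23. siRpl11 stood above every other library of its table, with a log2 change of 0.40 ± 0.05 (limma, adjusted p = 2.48e-05). In siRpl14 and siRpl18 the changes were 0.06 and 0.06 and were not called. In siRpl23 the change was 0.12, a call lost without any 1 of 5 libraries (both siNT, both siRpl11 and siRpl23 replicate 1, adjusted p at most 0.222). Eif3c, another core subunit, fell. It was at 233, 243 and 223 FPKM in siNT, 168, 184 and 176 in siRpl11, 171, 186 and 173 in siRpl14, 161, 177 and 173 in siRpl18, and 177, 184 and 173 in siRpl23. All knockdown libraries lay below all siNT libraries. In log2 terms the changes were -0.44 ± 0.06 in siRpl11, -0.41 ± 0.06 in siRpl14, -0.50 ± 0.06 in siRpl18 and -0.40 ± 0.06 in siRpl23 (limma, adjusted p at most 2.90e-04). The F test among knockdowns did not pass (adjusted p = 0.527).

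Eif3g, for an RNA-binding subunit that acts in scanning, rose. It was at 105, 108 and 133 FPKM in siNT, 151, 148 and 201 in siRpl11, 132, 135 and 170.2 in siRpl14, 131, 143 and 169 in siRpl18, and 132, 140.0 and 173 in siRpl23. Its log2 changes were 0.48 ± 0.05 in siRpl11, 0.32 ± 0.05 in siRpl14, 0.36 ± 0.05 in siRpl18 and 0.35 ± 0.05 in siRpl23 (limma, adjusted p at most 2.95e-04), and the third libraries gave 0.59, 0.35, 0.34 and 0.37. The ratio of Eif3g to Eif3c, chosen after its values were seen and not tested, averaged 0.492 in siNT, 0.937 in siRpl11, 0.818 in siRpl14, 0.863 in siRpl18 and 0.829 in siRpl23.

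Eif3e, a peripheral subunit, had the largest called change of eIF3. It was at 93.3, 79.5 and 220.3 FPKM in siNT, 167, 141 and 299 in siRpl11, 109.5, 98.7 and 244 in siRpl14, 112, 100.1 and 227 in siRpl18, and 119, 101 and 238 in siRpl23. siRpl11 stood above the other groups of each table, and its log2 change was 0.82 ± 0.11 (limma, adjusted p = 8.05e-05). Over the other 3 knockdowns together the excess was 0.52 ± 0.09 (adjusted p = 5.88e-04). The changes were 0.27 ± 0.11 in siRpl14, which was not called (limma, adjusted p = 0.0549), and 0.29 and 0.35 in siRpl18 and siRpl23, which were. The siRpl14 change was called in 8 of 18 alternatives, all 15 libraries among them. The siRpl18 and siRpl23 calls were lost without siNT replicate 2, and without siRpl18 replicate 1 or siRpl23 replicate 1, respectively (adjusted p at most 0.251 and 0.147). With all 15 libraries the siRpl18 call was lost too. Its siNT level was 2.55 times as high in the smaller table as in the larger one.

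Among the remaining eIF3 genes, Eif3b was higher in siRpl11, siRpl14 and siRpl23 (0.29, 0.18 and 0.13, the last not with all 15 libraries, adjusted p at most 0.580), and Eif3f was higher in siRpl11 (0.20). Eif3k was lower in each knockdown (-0.19, -0.29, -0.34 and -0.29), in siRpl11 not without siNT replicate 2 or siRpl11 replicate 1 (adjusted p at most 0.228). Eif3d was lower in siRpl14, siRpl18 and siRpl23 (-0.20, -0.23 and -0.21). Eif3h was lower in the same 3 groups (-0.17, -0.15 and -0.16), and Eif3i and Eif3m were lower in siRpl18 (-0.25 and -0.22). All of these Eif3h, Eif3i and Eif3m calls were lost without siNT replicate 2 and without replicate 1 of the knockdown, and those of Eif3h in siRpl18 and siRpl23 also without siRpl23 replicate 2 (adjusted p at most 0.161, 0.267 and 0.148 for Eif3h, 0.0875 for Eif3i and 0.124 for Eif3m). Eif3l was not called.

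Eif3j2 could not be read alone, because its near-identical copy Eif3j1 shares its sequence. In siRpl11 replicate 1, Eif3j1 was at 9.60 FPKM and Eif3j2 at 2.31, whereas in every other library Eif3j1 was at 0.186 or less. The sum of both was 10.53 to 12.79 FPKM in the 10 libraries of the larger table, siRpl11 replicate 1 included, and 34.4 to 44.7 in the smaller one. The Eif3j2 change in siRpl11 (-0.80 ± 0.47) was not called (limma, adjusted p = 0.151).

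The cap-binding complex eIF4F and its partners gave the widest spread of log2 changes in siRpl11, from -1.03 (Eif4g3) to 0.70 (Eif4g2). Of 12 genes, Eif4e3 included, 5 were higher and 6 lower in siRpl11, beside 27.3% and 43.6% of all genes, and 3 and 3 in siRpl14, beside 33.3% and 29.5%. In siRpl18 and in siRpl23 they were 4 and 4, beside 32.8% and 34.7%, and 34.9% and 30.8%. eIF4A is the helicase of the complex and is encoded by Eif4a1 and Eif4a2. Eif4a1 was at 1151, 1227 and 1319 FPKM in siNT, 1363, 1434 and 1552 in siRpl11, 1132, 1212 and 1322 in siRpl14, 1114, 1197 and 1345 in siRpl18, and 1165, 1169.7 and 1289 in siRpl23. It was called only in siRpl11 (0.23 ± 0.06, limma, adjusted p = 0.00552). Eif4a2 was at 219, 216 and 164 FPKM in siNT, 164, 153 and 144 in siRpl11, 123, 127 and 121 in siRpl14, 136, 133 and 128 in siRpl18, and 135, 128 and 116 in siRpl23. In each table all knockdowns lay below siNT, and siRpl11 was the least low. The log2 changes were -0.46 ± 0.05 in siRpl11, -0.79 ± 0.05 in siRpl14, -0.69 ± 0.05 in siRpl18 and -0.72 ± 0.05 in siRpl23 (limma, adjusted p at most 1.06e-05). siRpl11 lay above the mean of the other 3 by 0.28 ± 0.04 (adjusted p = 1.05e-04).

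Eif4e encodes the cap-binding protein itself. It was at 46.9, 48.0 and 47.3 FPKM in siNT, 64.0, 61.8 and 54.9 in siRpl11, 49.1, 52.7 and 47.9 in siRpl14, 52.0, 54.1 and 45.1 in siRpl18, and 51.1, 53.5 and 41.2 in siRpl23. In siRpl11 it rose by 0.40 ± 0.05 (limma, adjusted p = 3.70e-05). In siRpl18 and siRpl23 the changes of 0.16 and 0.14 were called, but in both the third library lay below siNT. Neither call held with all 15 libraries, and they were lost without siNT replicate 1 and without siRpl18 replicate 2 or siRpl23 replicate 2; the siRpl23 call was also lost without siNT replicate 2 (adjusted p at most 0.232 and 0.712). Eif4e2 encodes 4EHP, a cap-binding protein that does not support initiation. Eif4e2 was at 103, 106 and 96.0 FPKM in siNT, 81.7, 84.8 and 70.7 in siRpl11, 79.9, 81.4 and 71.98 in siRpl14, 78.7, 79.1 and 74.3 in siRpl18, and 83.5, 83.1 and 73.0 in siRpl23. All knockdown libraries lay below all siNT libraries, with log2 changes of -0.32 ± 0.04 in siRpl11, -0.37 ± 0.04 in siRpl14, -0.40 ± 0.04 in siRpl18 and -0.32 ± 0.04 in siRpl23 (limma, adjusted p at most 4.24e-05). Eif4e3, another cap-binding gene, was low, at 0.635, 0.663 and 0.582 FPKM in siNT, 0.161, 0.275 and 0.190 in siRpl11, 1.07, 1.199 and 1.18 in siRpl14, 0.735, 0.638 and 0.421 in siRpl18, and 0.978, 1.08 and 0.688 in siRpl23. It passed the level filter only through siRpl14 and siRpl23 replicate 2, so its differences from siNT are given as a description with no test. They were -0.44 in siRpl11, 0.37 in siRpl14, 0.03 in siRpl18 and 0.30 in siRpl23 on the log2 scale.

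eIF4G is the scaffold that joins eIF4E, eIF4A and eIF3. Eif4g1, the main form, was at 172, 172 and 181 FPKM in siNT, 159, 156 and 151 in siRpl11, 179, 177 and 166 in siRpl14, 169.8, 169.8 and 168 in siRpl18, and 173, 171 and 158 in siRpl23. It fell by 0.13 in siRpl11 (SE 0.03, limma, adjusted p = 0.00826), a call lost after median-ratio scaling and without siRpl11 replicate 2 (adjusted p at most 0.496). Eif4g3, a much less abundant form, was at 4.78, 4.13 and 3.35 FPKM in siNT, 1.79, 1.54 and 1.16 in siRpl11, 4.87, 4.13 and 3.59 in siRpl14, 3.999, 3.66 and 4.003 in siRpl18, and 3.16, 2.83 and 2.78 in siRpl23. All 3 siRpl11 libraries lay below all 12 others, and the change was -1.03 ± 0.10 (limma, adjusted p = 8.21e-06), so siNT was 2.68 times as high. In siRpl23 the change was -0.45 ± 0.10 (adjusted p = 0.00257), and in siRpl14 and siRpl18 it was 0.01 and -0.17, not called. Eif4g2 encodes DAP5, a scaffold without the eIF4E-binding part that serves initiation independent of eIF4E. Eif4g2 was at 149, 149 and 192 FPKM in siNT, 244, 241 and 247 in siRpl11, 209, 214 and 225 in siRpl14, 206, 208 and 224 in siRpl18, and 213, 208 and 205 in siRpl23. Its changes on the log2 scale were 0.70 ± 0.04 in siRpl11, 0.51 ± 0.04 in siRpl14, 0.48 ± 0.04 in siRpl18 and 0.50 ± 0.04 in siRpl23 (limma, adjusted p at most 1.73e-06), and the third libraries, all above siNT, gave 0.36, 0.23, 0.22 and 0.10.

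The helicase cofactors Eif4b and Eif4h, which encode related RNA-binding proteins that stimulate eIF4A, set siRpl11 apart from the other knockdowns. Eif4b was at 306, 308 and 287 FPKM in siNT, 349.6, 353 and 337 in siRpl11, 247, 258 and 258 in siRpl14, 243, 255 and 260.0 in siRpl18, and 255, 257 and 259 in siRpl23. siRpl11 lay above siNT and the other 3 groups below it. Changes on the log2 scale were 0.19 ± 0.04 in siRpl11, -0.28 ± 0.04 in siRpl14, -0.30 ± 0.04 in siRpl18 and -0.26 ± 0.04 in siRpl23 (limma, adjusted p at most 0.00174), and siRpl11 exceeded the mean of the other knockdowns by 0.47 ± 0.03 (adjusted p = 1.19e-06). Eif4h was at 157, 146 and 157 FPKM in siNT, 143, 138 and 126 in siRpl11, 214, 200.4 and 220.2 in siRpl14, 212, 212 and 228 in siRpl18, and 207, 202 and 217 in siRpl23. Here siRpl14, siRpl18 and siRpl23 lay above siNT and siRpl11 below it in both tables. The changes were -0.11 ± 0.05 in siRpl11, 0.45 ± 0.05 in siRpl14, 0.48 ± 0.05 in siRpl18 and 0.43 ± 0.05 in siRpl23, of which that in siRpl11 was not called (limma, adjusted p = 0.0744). The difference of siRpl11 from the mean of the other 3 was -0.56 ± 0.04 (adjusted p = 1.30e-06). The ratio of Eif4h to Eif4b, chosen after its values were seen and not tested, averaged 0.510 in siNT, 0.391 in siRpl11, 0.832 in siRpl14, 0.859 in siRpl18 and 0.809 in siRpl23. Of the other genes of the group, Eif4a3, whose product marks exon junctions, was higher in siRpl11 (0.23) and siRpl18 (0.12). Eif4enif1, which encodes a transporter of eIF4E, was lower in both (-0.22 and -0.13). In siRpl18 the Eif4a3 call was lost without siNT replicate 2 or siRpl18 replicate 2, and the Eif4enif1 call without siNT replicate 1 or siRpl18 replicate 1 (limma adjusted p at most 0.180 and 0.138).

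**Figure D3:**
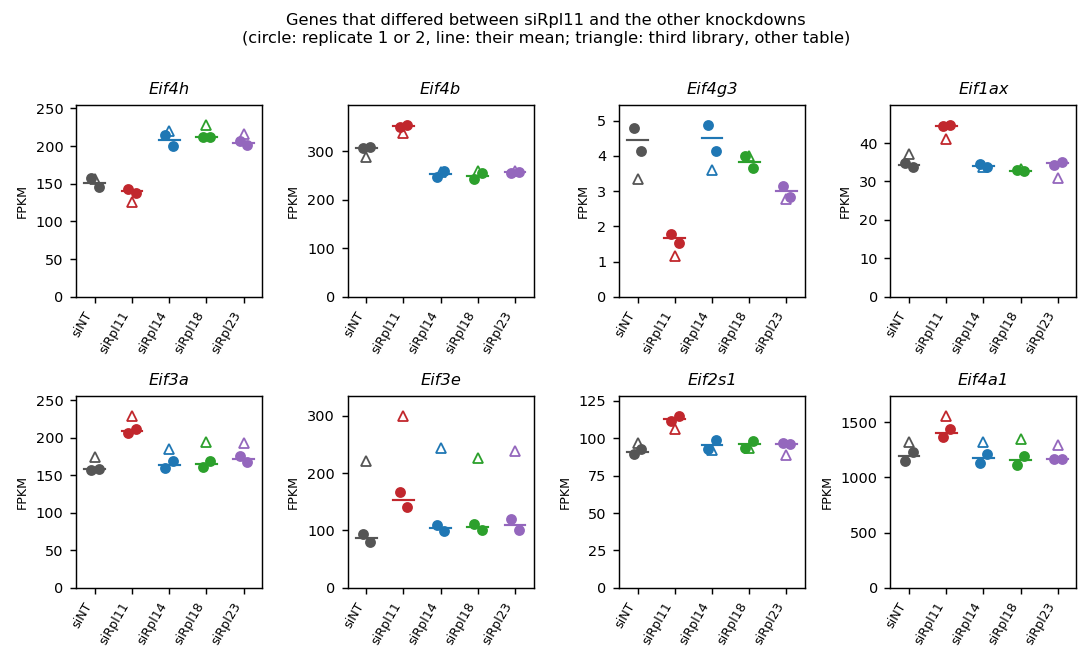
FPKM of 8 genes that differed between siRpl11 and the mean of the other 3 knockdowns, by group on the x axis, with circles for replicates 1 and 2, a line for their mean and a triangle for the third library from the other table. Eif4b, Eif1ax and Eif3a are highest and Eif4h and Eif4g3 lowest in siRpl11.

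Tested directly against the mean of the other 3 knockdowns, siRpl11 had more translation factor genes higher than lower, whereas among all genes more were lower. Of the 57 members, 28 were higher, beside 18.4% of all genes tested, and 11 lower, beside 44.2%. Together they are 68.4% of the members and 62.6% of all genes. Of calls of 0.5 or more in size, 1 was higher (Eif3e, beside 1.88% of all genes) and 3 were lower (Eif4g3, Eif4h and Eif4e3, of which the last passed the level filter only through siRpl14 and siRpl23, beside 16.4%), or 7.02% of members beside 18.2% of all genes. The median was 0.13 over members and -0.12 over all genes. After quantile normalization 25 members were higher and 9 lower, with 34.2% and 26.7% of all genes, and medians of 0.07 and 0.04. After median-ratio scaling 35 were higher and 4 lower, with 28.6% and 34.1% of all genes. The share of members called higher was above that of all genes under each scaling, but by an amount that depended on scaling. It was 49.1% beside 18.4% in the main fit, 43.9% beside 34.2% after quantile normalization and 61.4% beside 28.6% after median-ratio scaling. The excess was not tested. The F test for any difference among the 4 knockdowns passed for 34 members (59.6%, beside 60.8% of all genes tested).

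Eif6 encodes the factor that keeps the 60S subunit from joining too early and that takes part in making it. It was at 93.7, 102 and 124 FPKM in siNT, 120.3, 123 and 142 in siRpl11, 121, 113 and 144 in siRpl14, 115, 123 and 136 in siRpl18, and 116, 114 and 128 in siRpl23. In each table the knockdowns lay above siNT. The log2 changes were 0.31 ± 0.05 in siRpl11, 0.26 ± 0.05 in siRpl14, 0.28 ± 0.05 in siRpl18 and 0.23 ± 0.05 in siRpl23 (limma, adjusted p at most 0.00357), and the third libraries gave 0.20, 0.22, 0.13 and 0.05. The F test among the knockdowns did not pass (adjusted p = 0.516). Eif5b, for the GTPase that joins the subunits, was called in no knockdown, and its changes were 0.00 to 0.09.

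eIF5A, which helps the ribosome through difficult peptide bonds and carries the amino acid hypusine, is encoded by Eif5a and Eif5a2. Eif5a was at 1085, 1101 and 1379 FPKM in siNT, 1263, 1269 and 1477 in siRpl11, 1077, 1093 and 1275 in siRpl14, 1062, 1081 and 1337 in siRpl18, and 1080.2, 1070.2 and 1229 in siRpl23. It was called in siRpl11 (0.21 ± 0.04, limma, adjusted p = 0.00147). In siRpl14, siRpl18 and siRpl23 its changes of -0.01, -0.03 and -0.02 were not called, and after quantile normalization they turned to 0.12, 0.10 and 0.12 and were called. Eif5a2 was at 3.70, 3.97 and 5.15 FPKM in siNT, 3.37, 3.19 and 4.57 in siRpl11, 4.34, 4.44 and 5.78 in siRpl14, 3.73, 3.85 and 4.87 in siRpl18, and 3.80, 4.57 and 5.47 in siRpl23 and was called in no comparison with siNT.

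The elongation factor eEF1A, which delivers aminoacyl-tRNA, had the most abundant RNA of the set. Eef1a1 was at 8977, 9279 and 9366 FPKM in siNT, 10136, 11164 and 11570.2 in siRpl11, 8353, 9527 and 10496 in siRpl14, 8364, 9727 and 11013 in siRpl18, and 8683, 9096 and 11138 in siRpl23. The replicates spread widely, and the change in siRpl11 of 0.22 ± 0.10 was not called (limma, adjusted p = 0.0750). It was called with all 15 libraries, with median-ratio scaling, with a replicate block (the replicate number as a term), and without either siRpl18 replicate. The genes for the exchange factor eEF1B, which recharges eEF1A, were level or lower. Eef1d was at 197, 205 and 232 FPKM in siNT, 159.8, 171 and 194 in siRpl11, 189, 198 and 209 in siRpl14, 171, 183 and 186 in siRpl18, and 188, 192 and 194 in siRpl23. It was lower in siRpl11 (-0.28 ± 0.05, limma, adjusted p = 6.18e-04) and in siRpl18 (-0.18 ± 0.05, adjusted p = 0.00874). The siRpl18 call was lost without siNT replicate 2 and without siRpl18 replicate 1 (adjusted p at most 0.0668). Eef1g was lower in each knockdown (-0.13, -0.26, -0.27 and -0.28) before, but in none after, quantile normalization. Its call in siRpl11 was also lost without any 1 of the siNT or siRpl11 replicates (adjusted p at most 0.560). Eef1b2 was not called. Eef1e1, whose product belongs to the multi-synthetase complex rather than to eEF1, was lower in siRpl18 (-0.21) and siRpl23 (-0.14), calls lost without siRpl18 replicate 1 and without any 1 of the siNT or siRpl23 replicates, respectively (adjusted p at most 0.0577 and 0.197).

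The gene of the translocase eEF2 was called in no knockdown, but 2 genes of its modifiers were called lower in each. Eef2 was at 1522, 1455 and 1593 FPKM in siNT, 1601, 1637 and 1763 in siRpl11, 1470.1, 1505 and 1704 in siRpl14, 1506, 1604 and 1732 in siRpl18, and 1475, 1514 and 1740.5 in siRpl23, and its log2 changes were 0.12, 0.00, 0.06 and 0.01, of which none was called (in siRpl11, limma adjusted p = 0.0640). With median-ratio scaling, with all 15 libraries, with a replicate block, or without either siRpl18 replicate the siRpl11 change was called. Eef2k encodes the kinase that phosphorylates eEF2 and halts elongation. Eef2k was at 5.79, 5.197 and 4.89 FPKM in siNT, 4.26, 4.43 and 4.37 in siRpl11, 3.01, 3.16 and 3.07 in siRpl14, 3.15, 3.21 and 3.47 in siRpl18, and 3.17, 3.27 and 3.37 in siRpl23. In each table the knockdowns lay below siNT, with siRpl11 the least low. Relative to siNT the log2 changes were -0.28 ± 0.07 in siRpl11, -0.67 ± 0.07 in siRpl14, -0.63 ± 0.07 in siRpl18 and -0.62 ± 0.07 in siRpl23 (limma, adjusted p at most 0.00553), and the siRpl11 call was lost after quantile normalization (adjusted p = 0.561). Eef2kmt encodes a lysine methyltransferase of eEF2. Eef2kmt was at 6.28, 5.67 and 7.45 FPKM in siNT, 3.08, 3.57 and 5.65 in siRpl11, 5.10, 4.99 and 7.32 in siRpl14, 4.03, 4.13 and 5.44 in siRpl18, and 4.80, 4.84 and 7.94 in siRpl23. The changes were -0.69 ± 0.08 in siRpl11, -0.21 ± 0.08 in siRpl14, -0.46 ± 0.08 in siRpl18 and -0.26 ± 0.08 in siRpl23. The largest, in siRpl11, had a limma adjusted p of 2.28e-05. The third libraries gave -0.34 in siRpl11, -0.02 in siRpl14, -0.39 in siRpl18 and 0.08 in siRpl23. With all 15 libraries the calls in siRpl14 and siRpl23 were lost. In siRpl14 (adjusted p = 0.0387) the call was lost without 1 library in 7 of the ways tried, siNT replicate 1 and either siRpl14 replicate among them (adjusted p at most 0.210), and in siRpl23 (adjusted p = 0.0130) without siNT replicate 1 or siRpl23 replicate 1 (adjusted p at most 0.135).

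Of 3 genes for methyltransferases of eEF1A, Eef1akmt1 rose. It was at 16.8, 16.8 and 21.9 FPKM in siNT, 25.2, 27.1 and 27.8 in siRpl11, 28.6, 31.8 and 32.0 in siRpl14, 22.7, 24.3 and 25.5 in siRpl18, and 25.9, 28.2 and 23.0 in siRpl23. All knockdown libraries lay above all siNT libraries. In log2 terms the changes were 0.61 ± 0.07 in siRpl11, 0.81 ± 0.07 in siRpl14, 0.46 ± 0.07 in siRpl18 and 0.65 ± 0.07 in siRpl23 (limma, adjusted p at most 1.43e-04), and the third libraries gave 0.33, 0.53, 0.21 and 0.07. Eef1akmt2 was called higher in siRpl11 alone (0.35), where the third library lay below siNT. That call was lost with all 15 libraries and without siNT replicate 2 or siRpl11 replicate 1 (adjusted p at most 0.185). Eef1akmt4 was not called.

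Several factors are encoded by a pair of paralogs, and the ratio within a library does not depend on how libraries were scaled. For 7 pairs the log2 FPKM ratio was compared with siNT over 3 libraries per group with a two-sided exact permutation test, whose smallest possible p with these numbers is 0.10. No comparison can therefore pass 0.05, and over the 28 comparisons the smallest adjusted p was 0.165. The test and the means pool the separately normalized tables, so the ratios were also read within each table, where replicates 1 and 2 of a knockdown are set against those of siNT and the third library against the third siNT library. The ratio of Eif4a2 to Eif4a1 was -2.64 ± 0.33 (SD, n = 3) in siNT and lay lower in siRpl11 (-3.24 ± 0.19), siRpl14 (-3.30 ± 0.13), siRpl18 (-3.20 ± 0.18) and siRpl23 (-3.26 ± 0.19). No siNT library overlapped a knockdown library (exact permutation p = 0.10 in each). The ratio of Eif4e2 to Eif4e was 1.1 ± 0.07 in siNT and 0.39 ± 0.06, 0.64 ± 0.06, 0.62 ± 0.09 and 0.72 ± 0.10 in the knockdowns in the same order, again without overlap. The ratio of Eif4g3 to Eif4g1 was -5.44 ± 0.30 in siNT and -6.72 ± 0.28 in siRpl11, without overlap. It was -5.84 ± 0.07 in siRpl23, also without overlap. Most of that difference lay in the larger table (-5.78 and -5.92 against -5.17 and -5.38). In the smaller table siRpl23 was close to siNT (-5.83 against -5.76). In siRpl14 it overlapped siNT in the larger table, and in siRpl18 it lay below siNT in the larger table (-5.41 and -5.54 against -5.17 and -5.38) and above it in the smaller (-5.39 against -5.76).

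Both genes of the Eif1 pair rose. The ratio of Eif1b to Eif1 was -3.74 ± 0.05 in siNT, -3.77 ± 0.18 in siRpl11, -3.67 ± 0.08 in siRpl14, -3.97 ± 0.02 in siRpl18 and -3.81 ± 0.02 in siRpl23. Within each table siRpl18 lay below siNT, and siRpl14 lay above it (-3.74 and -3.68 against -3.79 and -3.75, and -3.58 against -3.69). In siRpl11 the ratio was below siNT in the larger table and above it in the smaller, and in siRpl23 it overlapped siNT in the larger table. For Eif2s3y relative to Eif2s3x the ratio was -1.70 ± 0.13 in siNT, -1.19 ± 0.18 in siRpl14, -1.37 ± 0.15 in siRpl18 and -1.2 ± 0.13 in siRpl23, all apart from siNT, and -1.53 ± 0.13 in siRpl11, which overlapped it in the larger table. Eif5a2 relative to Eif5a was lower in siRpl11 (-8.51 ± 0.16) and higher in siRpl14 (-7.89 ± 0.09) than in siNT (-8.12 ± 0.06). Eif1a relative to Eif1ax was 1.00 ± 0.16 in siRpl11 and 1.33 ± 0.14 in siNT. Within each table siRpl11 lay below siNT and the other 3 knockdowns above it. In the larger table the ratio was 1.198 and 1.31 in siNT, 0.90 and 0.92 in siRpl11, 1.37 and 1.44 in siRpl14, 1.39 and 1.45 in siRpl18, and 1.44 and 1.37 in siRpl23. In the smaller it was 1.48 in siNT, 1.18 in siRpl11, 1.54 in siRpl14, 1.52 in siRpl18 and 1.61 in siRpl23. A pair with Eef1a2 was not computed because that gene lay under the filter.

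**Figure D4:**
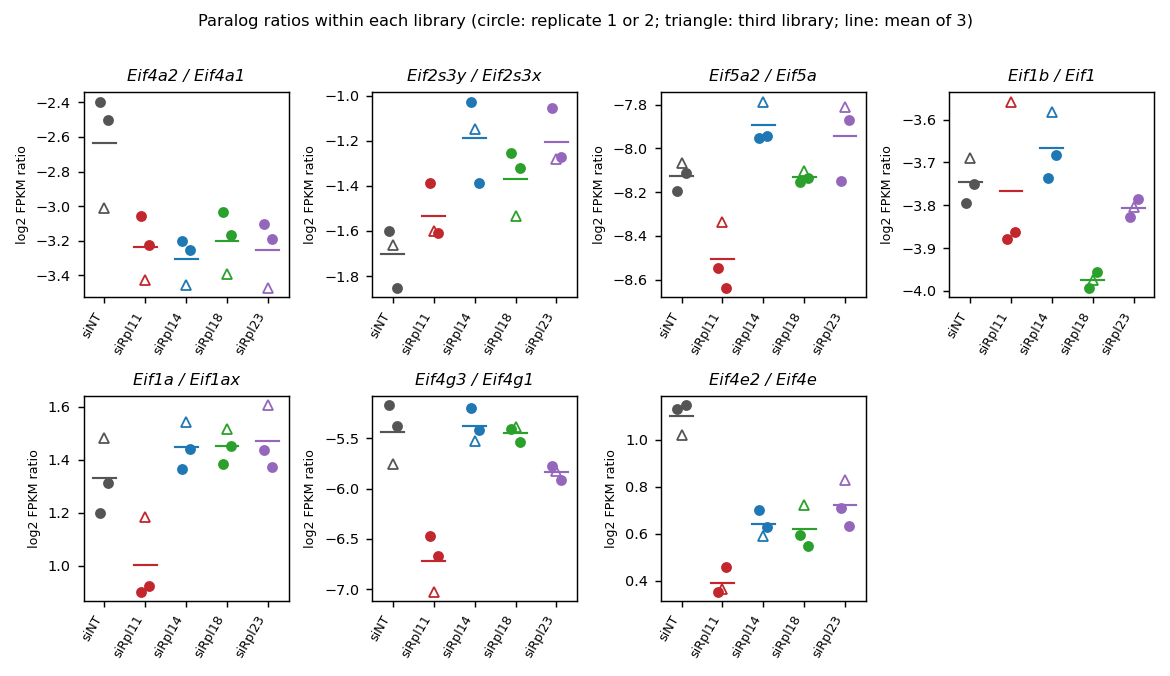
Log2 ratio of FPKM between paralogs within each library (y axis) for 7 pairs, by group on the x axis, with circles for replicates 1 and 2, triangles for the third library and a line for the mean of 3 libraries. Eif4a2 relative to Eif4a1 and Eif4e2 relative to Eif4e lie lower in every knockdown library than in every siNT library.

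The third libraries, with an siNT library of their own, gave the same sign as replicates 1 and 2 for 39 of 40 members called in siRpl11 (97.5%, beside 91.8% of all genes called), 28 of 29 in siRpl14 (96.6%, beside 91.0%), 31 of 34 in siRpl18 (91.2%, beside 90.7%) and 28 of 34 in siRpl23 (82.4%, beside 88.9%). All calls of 0.5 or more in size had the same sign (10, 7, 5 and 7 members), beside 97.1%, 96.8%, 96.5% and 96.1% of all genes called by as much. Across the 57 genes, Pearson's r between the differences in the 2 tables was 0.868, 0.872, 0.853 and 0.775 in the same order, a description over genes that share their libraries. The siNT level differed by more than 1.5 times between tables for 7 members (12.3%, beside 21.6% of all genes). Eif3j2, Eif3e, Eif5, Eif2s3y, Eif2s3x and Eif2s2 were higher in the smaller table and Eef1b2 was lower there. Sequence shared with other genes is a limit on levels: 13 members have another annotated gene, mostly a pseudogene, that matches at least 200 bases of their transcripts at 98% identity or more. They are Eef1a1, Eef1akmt4, Eef1b2, Eef1g, Eif1, Eif2s2, Eif2s3x, Eif3j2, Eif3m, Eif4a1, Eif4a2, Eif4e and Eif4e3, and their values are uncertain to the extent that reads were split. Whether strand was used in counting is not given in the sources used here, so reads of overlapping antisense genes may be included.

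**Figure D5:**
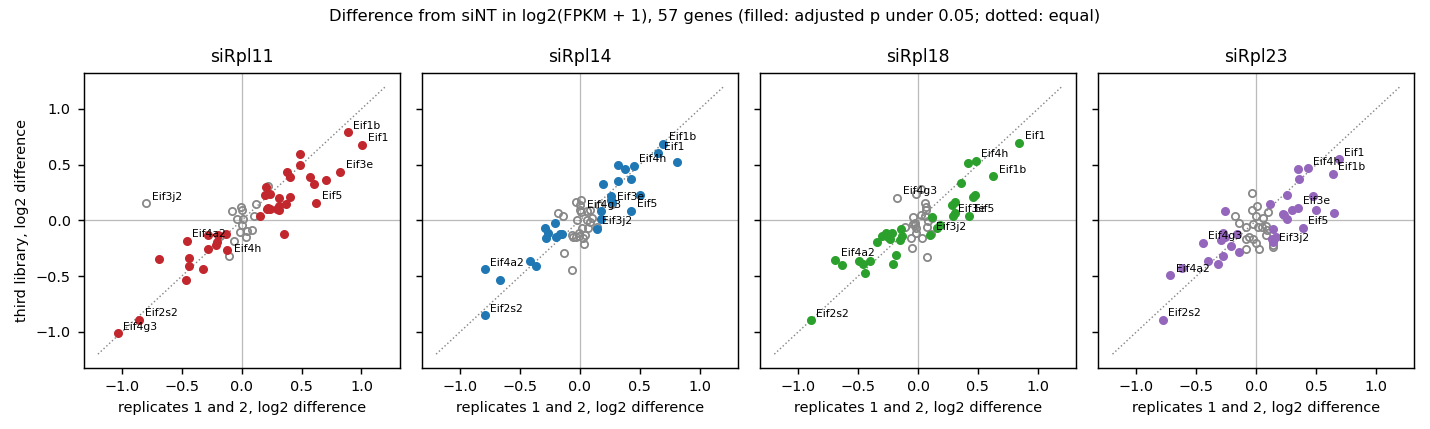
Log2 difference from siNT in the third library (y axis) against that in replicates 1 and 2 (x axis) for the 57 genes in each knockdown, with filled points for an adjusted p under 0.05 and a dotted line of equality. Eif1 and Eif1b lie at the upper right and Eif2s2 at the lower left of their panels, and Eif5 lies well under the line. Eif4h lies at the upper right in siRpl14, siRpl18 and siRpl23, but below and left of the origin in siRpl11.

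Promoter sequences were read for the elements that are known to be shared by genes of the translation machinery. RefSeq (GRCm38.p6) gave promoters, 250 bases before to 50 from the annotated start, for 45 of the 57 genes. A TOP-like start was defined as a C within 5 bases of the annotated start followed by at least 4 pyrimidines, on the gene's strand. It was found in 11 of 45 genes (24.4%), beside 21.2% of all genes with an entry and 23.9% of those tested here, so the members held it about as often as other genes. The definition missed Eef2 and Eef1b2, which are listed below as TOP mRNAs, and Eef1d, Eef1g, Eif3e and Eif3h of that list had no promoter entry. The windows printed run from 10 bases before the annotated start to 20 from it. They show the longest runs, the gene for eEF1A, and for contrast Eif1 and Eif2s2, called in opposite directions in each knockdown, which have none. Capitals mark the pyrimidine run as counted from a C within 5 bases of the annotated start. Pyrimidines directly before that C, as in Eif2s3x, stay in lower case.
Eif3f: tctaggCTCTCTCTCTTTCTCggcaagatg
Eif2s3x: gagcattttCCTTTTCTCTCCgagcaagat
Eif2s3y: ggccacagccaCTTCCTTCTTTCgtgagca
Eef1a1: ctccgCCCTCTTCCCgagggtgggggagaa
Eif1: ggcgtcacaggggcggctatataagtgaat
Eif2s2: aaggttggctttactgtacgcctgcgcttt

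These windows lie at chr7:108934405-108934434 (plus strand) for Eif3f, chrX:94212632-94212661 (minus) for Eif2s3x, chrY:1010585-1010614 (plus) for Eif2s3y, chr9:78481705-78481734 (minus) for Eef1a1, chr11:100319939-100319968 (plus) for Eif1 and chr2:154892887-154892916 (minus) for Eif2s2. Counted from that C, the X and Y copies of the eIF2 gamma gene both have runs of 12 pyrimidines. In Eif2s3x the uninterrupted stretch is longer, because further pyrimidines lie directly before the C. Against siNT only Eif2s3y was called. Members with a TOP-like start had median log2 changes of 0.10, 0.02, -0.03 and 0.00 in siRpl11, siRpl14, siRpl18 and siRpl23, and those without had 0.14, 0.01, 0.02 and 0.04. A list of 8 members taken as TOP mRNAs from the literature, which may leave out others, held Eef1a1, Eef1b2, Eef1d, Eef1g, Eef2, Eif3e, Eif3f and Eif3h. They had medians of 0.06, -0.02, -0.03 and -0.04, against -0.11, 0.02, -0.02 and 0.02 over all genes. Of these 8, 2, 0, 1 and 1 were called higher, beside 27.3%, 33.3%, 32.8% and 34.9% of all genes, and 2, 2, 3 and 2 lower, beside 43.6%, 29.5%, 34.7% and 30.8%.

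The E-box CACGTG, a site of Myc and related factors, reads the same on both strands. It was found in 13 of 45 members (28.9%), beside 8.09% of all genes with an entry and 12.2% of those tested. Genes of all 3 parts of eIF4F hold it, and they are shown with Eif4h and Eef2, each with 12 bases on either side and the E-box in capitals.
Eif4e: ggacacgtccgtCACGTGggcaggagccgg
Eif4a1: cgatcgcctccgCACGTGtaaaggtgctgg
Eif4g1: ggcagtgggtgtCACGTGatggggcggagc
Eif4h: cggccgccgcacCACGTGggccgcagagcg
Eef2: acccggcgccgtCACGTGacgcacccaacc

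They lie at chr3:138527192-138527221 (plus strand), chr11:69672595-69672624 (minus), chr16:20672661-20672690 (plus), chr5:134639488-134639517 (minus) and chr10:81176576-81176605 (plus), and the E-box shown starts 64, 189, 54, 96 and 43 bases before an annotated start of the gene. These genes did not move alike: in siRpl11, Eif4e and Eif4a1 were higher, Eif4g1 was lower, and Eif4h and Eef2 were not called. Members with the E-box had median changes of 0.12, 0.05, -0.01 and 0.01 in the 4 knockdowns and those without had 0.13, 0.02, -0.02 and 0.02. The element TGATGNAAT, bound by ATF4 with its partners, was found on neither strand in any of the 45 promoters (0.521% of tested genes hold it), which says only that these letters are not in this window. A match is a description of the sequence, and binding was not measured here.

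Genes that act on or with these factors, 57 in 9 lists and none of them a member, were tested in the same fit. Of these 20 were higher and 23 lower in siRpl11 (27.3% and 43.6% of all genes), 17 and 12 in siRpl14 (33.3% and 29.5%), 17 and 16 in siRpl18 (32.8% and 34.7%), and 18 and 12 in siRpl23 (34.9% and 30.8%). These all-gene shares are also those to read the counts of the single lists against. Among 9 genes of termination and recycling, 8 were higher and 0 lower in siRpl11, beside 27.3% and 43.6% of all genes (median 0.41, beside -0.11). In siRpl14 they were 5 and 0 (all genes 33.3% and 29.5%), in siRpl18 4 and 1 (32.8% and 34.7%), and in siRpl23 4 and 1 (34.9% and 30.8%). Mcts1, which with Denr recycles 40S subunits, was at 7.99, 6.74 and 19.6 FPKM in siNT, 16.5, 14.3 and 32.7 in siRpl11, 15.1, 11.4 and 33.9 in siRpl14, 13.96, 13.2 and 32.5 in siRpl18, and 13.3, 11.98 and 27.8 in siRpl23. Its log2 changes were 0.97 ± 0.12 in siRpl11, 0.76 ± 0.12 in siRpl14, 0.80 ± 0.12 in siRpl18 and 0.71 ± 0.12 in siRpl23 (limma, adjusted p at most 5.58e-04). Hbs1l, a rescue factor for stalled ribosomes, was at 34.3, 33.1 and 28.5 FPKM in siNT, 63.9, 58.8 and 56.5 in siRpl11, 49.8, 51.3 and 49.98 in siRpl14, 48.4, 49.6 and 44.99 in siRpl18, and 51.9, 48.8 and 42.6 in siRpl23. Its changes were 0.84 ± 0.05 in siRpl11, 0.57 ± 0.05 in siRpl14, 0.53 ± 0.05 in siRpl18 and 0.56 ± 0.05 in siRpl23 (limma, adjusted p at most 9.21e-06). In both genes every knockdown library lay above the siNT libraries of its table. Mcts2, of the same list, was at 42.2, 46.0 and 33.1 FPKM in siNT. Near-identical copies were looked for among members only, so reads shared between Mcts1 and Mcts2 were not examined.

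Of 13 genes of the 4E-BPs, mTORC1 and other regulators of eIF4, 11 were lower and 2 higher in siRpl11, beside 43.6% and 27.3% of all genes (median -0.43, beside -0.11). In siRpl14, 4 were lower and 3 higher (all genes 29.5% and 33.3%), in siRpl18 7 and 2 (34.7% and 32.8%), and in siRpl23 5 and 3 (30.8% and 34.9%). Eif4ebp1, for a 4E-BP that blocks eIF4E, was at 307, 324 and 394 FPKM in siNT, 196, 205 and 269 in siRpl11, 219, 224 and 292 in siRpl14, 200.3, 214 and 243 in siRpl18, and 228, 237 and 278 in siRpl23. Its changes were -0.65 ± 0.05 in siRpl11, -0.51 ± 0.05 in siRpl14, -0.61 ± 0.05 in siRpl18 and -0.44 ± 0.05 in siRpl23 (limma, adjusted p at most 2.44e-05). Mknk1, for a kinase that phosphorylates eIF4E, was at 8.66, 8.43 and 6.41 FPKM in siNT, 3.59, 3.99 and 3.94 in siRpl11, 6.22, 5.90 and 6.07 in siRpl14, 5.48, 5.78 and 4.64 in siRpl18, and 5.60, 5.42 and 4.503 in siRpl23. Its changes were -0.99 ± 0.07 in siRpl11, -0.43 ± 0.07 in siRpl14, -0.52 ± 0.07 in siRpl18 and -0.55 ± 0.07 in siRpl23 (limma, adjusted p at most 2.95e-04). Of 6 genes of eIF2 kinases and the phosphatase subunits that reverse them, 1 was higher and 2 lower in siRpl11, beside 27.3% and 43.6% of all genes, and 3 and 2 in each other knockdown, beside 32.8% to 34.9% and 29.5% to 34.7%. Ppp1r15a, the stress-induced phosphatase subunit GADD34, was at 16.6, 15.5 and 20.8 FPKM in siNT, 26.7, 27.8 and 29.0 in siRpl11, 28.1, 28.6 and 27.9 in siRpl14, 37.9, 36.3 and 32.4 in siRpl18, and 29.2, 27.4 and 26.9 in siRpl23. Its changes were 0.73 ± 0.05 in siRpl11, 0.78 ± 0.05 in siRpl14, 1.16 ± 0.05 in siRpl18 and 0.78 ± 0.05 in siRpl23 (limma, adjusted p at most 1.15e-06). Eif2ak4, for the kinase GCN2 that senses uncharged tRNA, was at 6.85, 7.14 and 5.11 FPKM in siNT, 3.71, 3.67 and 2.21 in siRpl11, 4.47, 4.71 and 3.79 in siRpl14, 3.60, 3.96 and 2.73 in siRpl18, and 4.12, 4.28 and 2.98 in siRpl23. Its changes were -0.77 ± 0.07 in siRpl11, -0.52 ± 0.07 in siRpl14, -0.74 ± 0.07 in siRpl18 and -0.62 ± 0.07 in siRpl23 (limma, adjusted p at most 1.02e-04). Every knockdown library lay above siNT for Ppp1r15a and below it for Eif2ak4.

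The poly(A)-binding list had 1 gene higher and 2 lower of 5 in each knockdown, where 27.3% to 34.9% of all genes were higher and 29.5% to 43.6% lower. Paip2b, an inhibitor of poly(A)-binding protein, was called lower in each knockdown, by 0.69 in siRpl11. Every knockdown library lay below the siNT libraries of its table for this gene. Pabpc4 changed by -0.28, -0.25, -0.46 and -0.33 in the 4 knockdowns. Of 4 helicase genes 3 were higher in siRpl11 (27.3% of all genes) and 2 in each other knockdown (32.8% to 34.9%). Ddx3x, a helicase for structured leaders, changed by 0.88, 0.51, 0.64 and 0.51, and Dhx9 by 0.50, 0.47, 0.26 and 0.46. In the smaller table Ddx3x was at 205.9 FPKM in siNT, 282.6 in siRpl11, 220.2 in siRpl14, 239.5 in siRpl18 and 205.3 in siRpl23. Its rise was thus absent there in siRpl23 and smaller in the other knockdowns. In that table Dhx9 lay below siNT in every knockdown. Of the enzymes that make hypusine on eIF5A, Dhps was higher in all 4 (0.45, 0.54, 0.46 and 0.53), but the third libraries lay below siNT too. With all 15 libraries the calls were lost for Dhx9 in siRpl18 and siRpl23 and for Dhps in siRpl11 and siRpl18 (limma, adjusted p at most 0.319, 0.0579, 0.0971 and 0.0801). Dohh was lower in siRpl11 and siRpl14 (-0.20 and -0.16), the former not after median-ratio scaling and the latter not without siNT replicate 2 (adjusted p at most 0.0688 and 0.0906). Of 7 genes for diphthamide on eEF2, Dph3 was called higher in each knockdown, by 0.64 in siRpl11. The siRpl14 call was lost with all 15 libraries (limma, adjusted p at most 0.0874). In the third libraries Dph3 was at 16.7 FPKM in siRpl14 and 17.8 in siRpl18, against 17.7 in siNT. Dph1 was lower in siRpl11 (-0.52). Eefsec, for the factor that delivers selenocysteine, was lower in all 4 (-0.67, -0.44, -0.44 and -0.50), a call lost in siRpl14 with all 15 libraries (adjusted p at most 0.0963). Of 9 mitochondrial translation factors 2 were higher and 4 lower in siRpl11 (27.3% and 43.6% of all genes), 1 and 2 in siRpl14 (33.3% and 29.5%) and in siRpl18 (32.8% and 34.7%), and 1 and 1 in siRpl23 (34.9% and 30.8%). Mtrf1 was higher in siRpl11 (0.42), and Mtrf1l was lower in siRpl23 (-0.31), a call lost without siRpl23 replicate 1 (adjusted p at most 0.0597).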

How the data were processed

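RNA-seq of 15 libraries (5 groups of 3) was available as 2 gene tables whose unit is FPKM. For these deposited FPKM the submitters' processing notes name STAR, Cuffnorm and the mouse build mm9. Their versions, the annotation and the normalization options were not given in the sources used here. Of the 15, the larger table holds 10 libraries, and 2 further columns that matched no sample were not used. The smaller table holds 1 library per group and was normalized separately, so differences were tested within the larger table only. Absolute depth is unknown, since FPKM keeps no counts.

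Genes at 1 FPKM or more in 2 or more of the 10 libraries were fitted with limma 3.58.1 (R 4.3.3) on log2(FPKM + 1), with 1 mean per group, 5 residual degrees of freedom and an intensity trend. Benjamini-Hochberg adjusted p-values ran over all genes, with 0.05 as the threshold. The fit was tested on simulated data first. Each knockdown was contrasted with siNT and siRpl11 with the average of the other 3, and the knockdowns entered an F test of equality of the 4 knockdowns. Transcripts of GENCODE M21 were compared with blastn 2.17.0+ for near-identical copies. Figures were drawn with Python 3.11.15 and matplotlib 3.10.9.

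The members and lists were chosen with earlier results of these data known. Values in every library are given for the 12 members with the largest called change, both members of each paralog pair, Eif2s1, Eif4e, Eif4g1, Eif4a1, Eif3a, Eif6, Eef1a1 and Eef2, and the largest called change of each role group. Up to 2 called genes with the largest change were named for each pathway list. Eif4b, Eif4h, Eif4e3, Eif3c, Eif3g, Eif2b3, Eif2d and the small changes named without library values were chosen after their values were seen, as were the size limit of 0.5 on the log2 scale and the subunit ratios. Alternatives were another pseudocount (0.1), no filter or 5 FPKM, quantile normalization, median-ratio scaling, a replicate block, all 15 libraries with the table as a term, a fit on only the groups compared, and leaving out each library.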

Additional observations from a re-analysis of the deposited data

How the results depend on the processing

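Median-ratio scaling moved the median log2 change of the members in siRpl11 to 0.19, and all 15 libraries moved it to 0.035. Against the other 3 knockdowns it moved to 0.069 with quantile normalization and 0.24 with median-ratio scaling, which left 4 members lower. Counts of changes of 0.5 or more were small and moved to 5 lower in siRpl18 (quantile normalization) and 2 higher in siRpl23 (all 15 libraries). For siRpl11 against the others they moved to 1 lower (5 FPKM filter) and to 3 (quantile), 2 (median-ratio) and 0 (all 15 libraries) higher. Quantile normalization reversed Eif5a to 0.12, 0.10 and 0.12 in siRpl14, siRpl18 and siRpl23, and, against the other knockdowns, Eif5a2 to 0.034 and Eef1g to -0.078. Median-ratio scaling reversed Eif1a there to 0.0080. The cause was not tested. Leaving out 1 library gave 23 to 27 higher and 13 to 16 lower in siRpl11, 16 to 18 and 9 to 13 in siRpl14, 12 to 15 and 12 to 18 in siRpl18, 15 to 20 and 11 to 14 in siRpl23, 23 to 30 and 8 to 11 for siRpl11 against the others, and 25 to 37 in the F test. Changes of 0.5 or more then numbered 7 to 8 higher and 3 to 5 lower in siRpl11, 4 to 6 and 3 in siRpl14, 2 to 3 and 3 to 4 in siRpl18, 3 to 5 and 3 to 4 in siRpl23, and 0 to 1 and 3 to 4 for siRpl11 against the others. The medians were 0.051 to 0.14, 0.02 to 0.06, -0.03 to 0.01 and 0.01 to 0.04 in the 4 knockdowns and 0.08 to 0.14 for the last contrast. Over all genes tested, same-numbered libraries did not deviate together (r from -0.09 to 0.20 over 10 pairs of groups), so the numbers were not taken as pairs. Some members did deviate together. In every group of the larger table, replicate 1 lay below replicate 2 for Eef1a1, Eef1akmt1, Eef1b2, Eef1d, Eef1e1, Eif2d, Eif2s3x and Eif3c. The same held for Eif3h, Eif3i, Eif3k, Eif3l, Eif3m, Eif4a1 and Eif4b. Replicate 1 lay above replicate 2 in each group for Eif2a, Eif2s2, Eif3e and Eif5. The main fit has no replicate term, so such shared shifts count there as spread within groups. With a replicate block 29 members were higher and 17 lower in siRpl11, 19 and 15 in siRpl14, 17 and 20 in siRpl18, 21 and 18 in siRpl23, and 31 and 12 for siRpl11 against the others. Depth limits the genes of low level, such as Eif4e3, most.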
